A study of Mus musculus with 2 samples.

Results

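The 5 genes described here, Gad1, Gad2, Slc32a1, Slc6a11 and Abat, make, load, take up and break down the inhibitory transmitter GABA, and they were chosen by symbol from the 21728 protein-coding genes of GENCODE mouse release M21 on chromosomes 1 to 19 and X. Their chromatin was read in the frontal cortex of female B6CASTF1/J mice, which are first-generation hybrids between B6 and CAST. The mice were 10 days old. DNase-seq maps accessible DNA by sequencing the ends that the enzyme DNase I leaves when it digests nuclei. Both libraries, biological replicates 1 and 2, belong to 1 group with no treatment, so the values below compare genes within a library and the 2 libraries with each other. The labels carry the mark "3x" without saying whether it means pooled animals.

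GABA is made from glutamate by glutamate decarboxylase, which has one form encoded by Gad1 and another encoded by Gad2. In cortex it is released by inhibitory interneurons, after the carrier encoded by Slc32a1 has packed it into vesicles. It is then cleared by plasma membrane transporters, of which the product of Slc6a11 sits mainly on astrocytes, and is degraded in mitochondria by the transaminase that Abat encodes. Interneurons are a minority of cortical cells, and in bulk tissue a site open in few cells and a site weakly open in many cells cannot be told apart.

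A peak is a stretch of raised cutting called by the authors in 1 library, and its signal is the authors' value, on a scale that the sources used here do not state. The libraries held 104654 peaks in replicate 1 and 81654 in replicate 2, with median signals of 0.604 and 0.880. Read totals were not analysed here, so the depth is unknown. Of 7 genes that mark the frontal cortex, 7 in replicate 1 and 6 in replicate 2 had a peak at a start, and none of 4 liver markers did in either. Of 7 hindbrain and midbrain markers, 3 in replicate 1 and 1 in replicate 2 had one. Of 12 interneuron markers, 9 in replicate 1 and 8 in replicate 2 had one, with Lhx6, Sst and Vip at 0 in both libraries and Dlx6 at 0 in replicate 2. The summed start signal of that list was 13.4 in replicate 1 and 9.86 in replicate 2. Of 7 astrocyte markers, 7 in replicate 1 and 5 in replicate 2 had one, with Aqp4 and Aldh1l1 at 0 in replicate 2 and summed signals of 9.19 in replicate 1 and 9.42 in replicate 2. Of all protein-coding genes, 66.6% in replicate 1 and 63.8% in replicate 2 had a peak at a start, so the interneuron counts lay little above that share. The part of these marker levels in the results below was not tested.

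All 5 genes had an open promoter in both libraries, meaning a peak within 500 bp of an annotated start. Among all protein-coding genes 66.6% in replicate 1, 63.8% in replicate 2 and 63.3% in both had one, so an open promoter was common and the count of 5 tells little by itself. The strength of these start peaks differed widely. Abat, which degrades GABA, had a promoter signal of 6.08 in replicate 1 and 7.01 in replicate 2. The vesicular carrier Slc32a1 had 1.13 in replicate 1 and 1.29 in replicate 2. The decarboxylase gene Gad1 had 0.938 in replicate 1 and 0.857 in replicate 2. Abat was therefore several times above the next gene in both libraries. The uptake carrier Slc6a11 had 0.859 in replicate 1 and 1.12 in replicate 2. The other decarboxylase gene, Gad2, had 0.786 in replicate 1 and 1.20 in replicate 2. Abat was first and Slc32a1 second in both libraries, while Gad1, Slc6a11 and Gad2 changed places and did not differ beyond the gap between the libraries. Slc32a1 led the next gene by 1.13 to 0.938 in replicate 1 and by 1.29 to 1.20 in replicate 2. Those leads were smaller than the gap of Gad2 between the libraries, 0.786 to 1.20, so its second place is not well separated either.

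**Figure D1:**
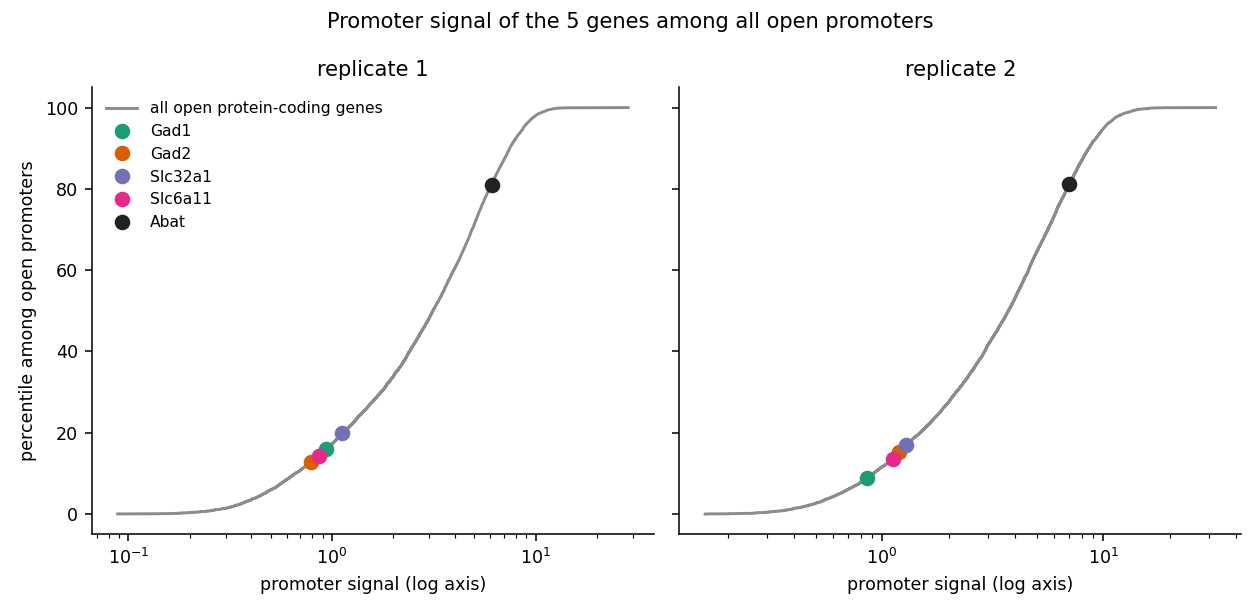
Promoter signal (x, log axis, the strongest peak within 500 bp of a start) against its percentile among open protein-coding promoters (y, %), 1 panel per replicate. The grey curve is all open promoters and the dots are the 5 genes: Abat lies at 81.0 and 81.2, and the other 4 lie between 8.77 and 19.9.

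The median open promoter reached 3.13 in replicate 1 and 3.73 in replicate 2. Abat stood at the 81.0 percentile of open promoters in replicate 1 and at 81.2 in replicate 2. Slc32a1 stood at 19.9 in replicate 1 and 16.9 in replicate 2. Gad1 stood at 15.9 in replicate 1 and 8.77 in replicate 2. Slc6a11 stood at 14.3 in replicate 1 and 13.6 in replicate 2, and Gad2 at 12.8 in replicate 1 and 15.1 in replicate 2. The 4 genes for synthesis, vesicle loading and astrocyte uptake thus had start peaks weaker than most open promoters, and the gene for breakdown had one stronger than most.

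Away from starts the order was another one. Counting peaks whose centre lay over 1000 bp from every annotated start, in the gene body and 20 kb on either side, Slc32a1 had 13.3 per 100 kb in replicate 1 and 8.89 in replicate 2, the 96.2 and 96.1 percentiles of protein-coding genes. Slc6a11 had 7.56 in replicate 1 and 6.30 in replicate 2. Gad2 had 5.37 in replicate 1 and 7.16 in replicate 2. Gad1 had 5.62 in replicate 1 and 4.5 in replicate 2, and Abat had 5.40 in both libraries. All 5 lay above the median of protein-coding genes, 2.39 in replicate 1 and 1.98 in replicate 2. Each had at least 1 such peak in both libraries, as did 73.9% of protein-coding genes in replicate 1, 68.0% in replicate 2 and 65.2% in both. The place of Gad2 depended on the weaker peaks and the flanks. As a mean of both libraries it had 6.27 distal peaks per 100 kb, but 2.24 with the authors' shorter peak list and 2.79 without flanks, the lowest of the 5 in both settings. Slc32a1 had the highest mean, 11.1, and stayed highest with 6.67 from the shorter list. With flanks of 100 kb it had 8.54, barely above Slc6a11 at 8.31. Without flanks its density rested on a mean of 1 peak.

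The 5 regions together span 552 kb and held 55 peaks in replicate 1 and 57 in replicate 2. Of these, 46 in replicate 1 overlapped a peak of the other library by at least 1 bp, which is 83.6% with a Wilson 95% interval of 71.7 to 91.1. In replicate 2 it was 48 peaks, 84.2% with an interval of 72.6 to 91.5. Over all peaks the shares were 64.8% in replicate 1 and 82.9% in replicate 2, so the replicate 2 share of the 5 genes lay at the background. The intervals cover counting error only. The authors' shorter list held 67.3% of the peaks of the 5 genes in replicate 1 and 50.9% in replicate 2, against 56.6% and 56.8% of all peaks. Merging overlapping peaks left 59 open sites, of which 41 were in both libraries, 9 in replicate 1 alone and 9 in replicate 2 alone.

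**Figure D2:**
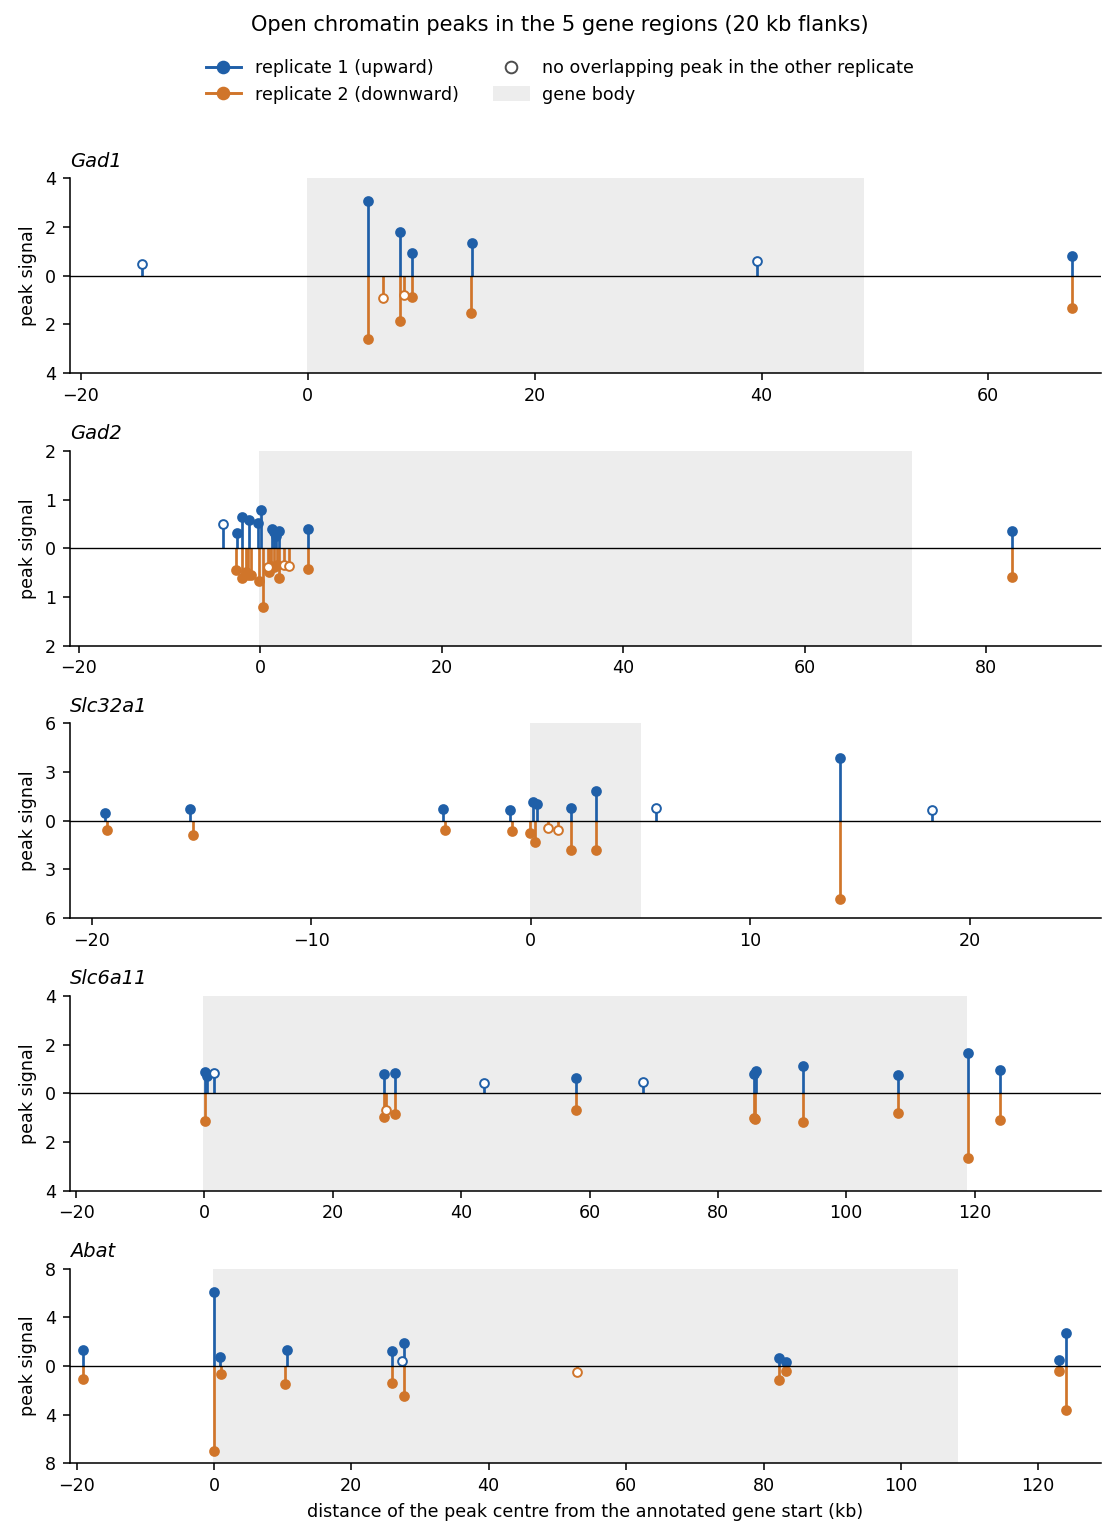
Signal of each peak (y, authors' unit) by distance of its centre from the annotated gene start (x, kb) in the 5 gene regions, replicate 1 upward and replicate 2 downward, with a y scale of its own for each gene. Filled dots are peaks with an overlapping peak in the other replicate and the grey band is the gene body: Abat has 1 tall peak at its start, Gad2 a row of low ones around it, and Gad1 its tallest peak 5.26 kb inside the gene.

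Gad1 (ENSMUSG00000070880.10) lies on the plus strand at chr2:70553072-70602014 of GRCm38 and has 8 annotated transcripts with 7 starts, the last of them 13305 bp after the first. The first start, where the gene begins, had no peak in either library, and no base of it was listed in the authors' tables of significant cut rates. The open start lay further in, with its peak centred 9.15 kb from the gene start in replicate 1 and 9.17 kb in replicate 2. This peak was 471 bp wide in replicate 1 and 78 bp wide in replicate 2. The false discovery rate of cutting there reached 0.00127 in replicate 1 and 0.0213 in replicate 2. It was absent from the authors' shorter list in both libraries, so with that list, or with the first start alone, Gad1 had no open promoter.

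Other Gad1 peaks lay on both sides of this start. The strongest lay 5.26 kb after the gene start, in an intron of the longest transcripts and inside the antisense gene Gad1os, and reached 3.05 in replicate 1 and 2.62 in replicate 2. Another, 8.14 kb after the gene start and 832 bp before the nearest annotated start in replicate 1, had 1.79 in replicate 1 and 1.86 in replicate 2. The one 14.5 kb in had 1.34 in replicate 1 and 1.55 in replicate 2. The last lay downstream of the gene, 67.4 kb from its start, with 0.797 in replicate 1, below the start peak, and 1.31 in replicate 2, above it. Widening the promoter window to 2000 bp took in the peak 8.14 kb in and raised the mean Gad1 promoter signal of the libraries to 1.83, against 0.897 with 500 bp. No peak lay at a start of Gad1os in either library.

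The Gad1 peaks 5.26, 8.14 and 67.4 kb from the gene start each held an exact match to the consensus of CTCF, the zinc finger protein that binds insulators and loop anchors, and in both libraries a footprint covered it. A footprint is a short stretch inside open DNA that is cut less than its surroundings. The 3 stretches are shown because every exact CTCF match in the peaks of the 5 genes lies in them. They are read 5′ to 3′ on the plus strand of the GRCm38 reference, not of the hybrid mice, with the bases under a footprint in both libraries in capitals.
Gad1 chr2:70558241-70558420: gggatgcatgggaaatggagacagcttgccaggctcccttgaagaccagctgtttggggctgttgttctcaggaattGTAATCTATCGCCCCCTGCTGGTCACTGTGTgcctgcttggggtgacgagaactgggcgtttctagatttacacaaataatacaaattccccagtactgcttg
Gad1 chr2:70561101-70561320: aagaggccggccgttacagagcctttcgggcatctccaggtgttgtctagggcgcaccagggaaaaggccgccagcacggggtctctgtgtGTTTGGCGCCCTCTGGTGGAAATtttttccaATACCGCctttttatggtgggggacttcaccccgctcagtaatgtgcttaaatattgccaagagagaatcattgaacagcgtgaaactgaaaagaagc
Gad1 chr2:70620341-70620520: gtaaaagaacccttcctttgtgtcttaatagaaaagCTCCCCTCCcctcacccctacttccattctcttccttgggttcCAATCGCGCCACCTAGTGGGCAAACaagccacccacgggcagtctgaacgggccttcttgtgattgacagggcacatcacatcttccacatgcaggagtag
In each the match is on the minus strand and lies wholly inside the longest run of capitals. An exact match lay in the central 200 bp of 3 of 55 peaks of the 5 genes in replicate 1 (5.45%) and 3 of 57 in replicate 2 (5.26%), against 5.16% and 5.90% of all peaks. The 5 genes thus held the motif about as often as peaks in general did, and the 3 matches were all at Gad1. A match is a description of the letters and not a measurement of bound CTCF.

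At Gad1 the letters around the starts also differ. The 1001 bp around the first start, the closed one, had an observed to expected CpG ratio of 0.249, the 28 percentile of protein-coding genes. The 1001 bp around the second annotated start had 0.678, the 62.6 percentile. The peak of the open start was centred 29 bp after a later start in replicate 1 and 46 bp after it in replicate 2. The median over protein-coding gene starts was 0.558. Gad1 also had 2 peaks in replicate 1 alone and 2 in replicate 2 alone. One peak of replicate 2 alone, 6.62 kb into the gene with a signal of 0.925, held a match to the consensus of the repressor REST, which lay in 0.0507% of all peaks in replicate 1 and 0.0478% in replicate 2. No footprint covered it.

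Gad2 (ENSMUSG00000026787.3) lies on the same chromosome at chr2:22622205-22693874 and has 2 annotated starts. Its open DNA was spread out and low. In replicate 1 it had 12 peaks, 11 of them centred from -4.07 to 5.25 kb relative to the gene start, with signals of 0.255 to 0.786. In replicate 2 it had 17 peaks, 16 of them centred from -2.63 to 5.27 kb, with signals of 0.350 to 1.20. The strongest was at the gene start in both libraries, and only 1 peak lay outside this cluster, 82.8 kb from the start, with 0.344 in replicate 1 and 0.586 in replicate 2. Of the 2002 bp within 500 bp of a Gad2 start, peaks covered 1549 bp in replicate 1 and 1487 bp in replicate 2. At Abat they covered 280 bp in replicate 1 and 260 bp in replicate 2 of 4060 bp. Those 4060 bp belong to 7 starts, the last 99449 bp after the first. Only 1 peak per library lay within 500 bp of any of them. In bases covered, open DNA was therefore wide and low at the Gad2 starts and narrow and tall at the Abat start.

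Few of the Gad2 footprints recurred. Of 27 in replicate 1, 2 overlapped a footprint of replicate 2, and of 15 in replicate 2, 3 overlapped one of replicate 1. Those at the gene start lay in the transcribed leader and are not shown. The other recurring place was a peak centred 2.06 kb from the gene start in replicate 1 and 2.04 kb in replicate 2. It lay 966 bp after the second annotated start in replicate 1 and 946 bp after it in replicate 2, so it was not counted as distal. This peak reached 0.344 in replicate 1 and 0.609 in replicate 2. It is shown because it is one of the few Gad2 stretches where both libraries place a footprint. Capitals mark the bases under footprints in both libraries.
Gad2 chr2:22624181-22624360: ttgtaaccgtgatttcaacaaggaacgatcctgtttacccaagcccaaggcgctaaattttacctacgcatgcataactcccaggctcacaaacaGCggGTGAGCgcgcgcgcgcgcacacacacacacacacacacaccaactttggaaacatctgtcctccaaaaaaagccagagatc
Only 8 bases are common to the libraries, at the edge of a run of alternating cg and ca. Of the consensus letters searched for it held CAGATG, a proneural E-box, on the minus strand and away from the capitals. On the plus strand shown this reads catctg.

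Slc32a1 (ENSMUSG00000037771.11) is a short gene of 4982 bp at chr2:158610767-158615748, with 1 annotated start. Its start region is shared with 2 noncoding genes on the other strand: Gm14204 runs away from a start just upstream, and Gm14205 lies within Slc32a1. The start peaks of Slc32a1 and Gm14204 are the same, so they cannot be told apart. Peaks covered 707 bp of the 1001 bp around the Slc32a1 start in replicate 1 and 400 bp in replicate 2. The start of Gm14205 had no peak in replicate 1 and a signal of 0.541 in replicate 2.

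Slc32a1 had 11 peaks in each library, of which 9 in each were shared. Inside the gene a peak 2.96 kb from the start, at the edge of the second exon, had 1.85 in replicate 1 and 1.83 in replicate 2, above the start peak in both. A peak in the intron, 1.85 kb from the start, had 0.818 in replicate 1 and 1.83 in replicate 2. This was the least even pair at the 5 genes. The strongest peak in the flanks, 14.1 kb downstream with 3.85 in replicate 1 and 4.82 in replicate 2, sat on the start of the neighbouring gene Actr5. The peak at the second exon is shown because no peak inside the gene was stronger in either library, the intron peak equalling it in replicate 2, and because it had long footprints in both libraries, given in capitals.
Slc32a1 chr2:158613621-158613840: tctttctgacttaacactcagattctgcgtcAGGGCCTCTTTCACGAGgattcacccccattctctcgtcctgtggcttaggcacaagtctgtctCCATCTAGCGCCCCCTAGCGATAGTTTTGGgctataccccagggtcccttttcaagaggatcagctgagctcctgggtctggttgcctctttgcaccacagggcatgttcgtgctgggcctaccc
Its 2 runs of capitals hold 47 bases in all. The peaks at the start of Slc32a1 held several copies of GGGCGG, the GC box read by SP and KLF factors. The copy 226 bp after the start lay under a footprint in both libraries.

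Slc6a11 (ENSMUSG00000030307.8) covers 118712 bp at chr6:114131241-114249952. It had 14 peaks in replicate 1, 11 of them shared, and 11 in replicate 2, 10 of them shared. Of the 1179 bp within 500 bp of a Slc6a11 start, 2 overlapping peaks covered 820 bp in replicate 1 and 1 peak covered 448 bp in replicate 2. Most of the rest lay in introns, where the strongest, 93.3 kb from the start, had 1.14 in replicate 1 and 1.17 in replicate 2. The other shared intronic peaks, from 27.9 to 108 kb, had signals of 0.646 to 0.938 in replicate 1 and 0.677 to 1.04 in replicate 2.

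The strongest Slc6a11 peak lay just past the end of the gene, 119 kb from its start, with 1.65 in replicate 1 and 2.67 in replicate 2. It is shown because it exceeded the gene's own start peak in both libraries. Capitals again mark bases under a footprint in both.
Slc6a11 chr6:114250461-114250660: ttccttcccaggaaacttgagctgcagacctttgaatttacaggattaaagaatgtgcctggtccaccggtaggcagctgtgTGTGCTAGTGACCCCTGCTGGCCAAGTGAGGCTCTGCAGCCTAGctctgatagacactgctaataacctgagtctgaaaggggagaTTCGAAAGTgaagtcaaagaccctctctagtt
The longer run of capitals holds a CTCF match with 1 mismatch, a looser search added after the exact matches were seen. With 1 mismatch allowed, 14.5% of the peaks of the 5 genes in replicate 1 and 12.3% in replicate 2 matched, against 16.3% and 17.8% of all peaks. The E-box CAGCTG, a site for basic helix-loop-helix factors, lay centrally in 6 Slc6a11 peaks in each library. In replicate 2 these include overlapping peaks that hold the same copy. Over all 5 genes CAGCTG lay in 23.6% of peaks in replicate 1 and 28.1% in replicate 2, and over all peaks in 18.6% and 18.0%. The proneural E-box CAGATG went the other way. It lay in 14.5% of the peaks of the 5 genes in replicate 1 and 8.77% in replicate 2, against 18.4% of all peaks in both.

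Abat (ENSMUSG00000057880.12) covers 108140 bp at chr16:8513429-8621568 and has 7 annotated transcripts. It had 11 peaks in each library, 10 of them shared in each. Its start peak, with 6.08 in replicate 1 and 7.01 in replicate 2, ranked at the 97.5 and 96.9 percentiles of all peaks. The false discovery rate of cutting there reached 2.9e-74 in replicate 1 and 7.1e-49 in replicate 2. At the Gad2 start it reached 3.1e-10 in replicate 1 and 3.9e-09 in replicate 2. The Slc32a1 start reached 4.5e-06 in replicate 1 and 8.9e-14 in replicate 2. The Slc6a11 start reached 1e-05 in replicate 1 and 0.00026 in replicate 2, so Abat was lowest in both libraries.

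Within the gene, an Abat peak 27.6 kb from the start had 1.88 in replicate 1 and 2.50 in replicate 2. A neighbouring one 25.9 kb from the start had 1.19 in replicate 1 and 1.43 in replicate 2. Further peaks lay 10.6 kb in, with 1.28 in replicate 1 and 1.5 in replicate 2, and 82.2 kb in, with 0.672 in replicate 1 and 1.16 in replicate 2. Upstream, a peak at -19.0 kb had 1.31 in replicate 1 and 1.09 in replicate 2. Downstream the strongest had 2.74 in replicate 1 and 3.63 in replicate 2 and covered the starts of the neighbours Pmm2 and Tmem186. The part of the start peak that precedes the gene is shown first, then the intronic pair, because footprints recurred in all 3. Capitals mark bases under a footprint in both libraries.
Abat chr16:8513241-8513428: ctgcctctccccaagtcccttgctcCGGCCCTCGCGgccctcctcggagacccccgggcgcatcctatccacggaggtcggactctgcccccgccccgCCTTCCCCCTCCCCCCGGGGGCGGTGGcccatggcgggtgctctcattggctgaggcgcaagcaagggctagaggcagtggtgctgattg
Abat chr16:8539241-8539500: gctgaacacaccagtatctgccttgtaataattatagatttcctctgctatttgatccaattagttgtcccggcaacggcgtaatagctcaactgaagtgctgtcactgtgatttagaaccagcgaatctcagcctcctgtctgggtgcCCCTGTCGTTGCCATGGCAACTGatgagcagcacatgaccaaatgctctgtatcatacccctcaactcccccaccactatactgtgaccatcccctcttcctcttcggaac
Abat chr16:8540881-8541080: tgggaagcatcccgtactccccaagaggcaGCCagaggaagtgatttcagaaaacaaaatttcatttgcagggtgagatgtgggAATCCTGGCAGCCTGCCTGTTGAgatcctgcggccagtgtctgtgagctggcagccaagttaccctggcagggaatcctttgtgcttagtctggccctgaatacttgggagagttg
In the first, the longest run of capitals holds a GGGCGG. In the second, the capitals hold GTTGCCATG, the consensus of RFX factors, on the plus strand and again on the minus strand, with the matches overlapping. RFX matches lay in 1.82% of the peaks of the 5 genes in replicate 1 and 1.75% in replicate 2, which is this 1 peak in each, and in 1.10% and 1.12% of all peaks. The third stretch as shown held none of the consensus letters searched for. It ends at 8541080, as the replicate 2 peak does, while the replicate 1 peak runs on to 8541100. At and past this end the replicate 1 peak held a TTGGCA and a CAGCTG, the CAGCTG under a footprint of replicate 1. In the Abat peak 82.2 kb from the start, both copies of CAGCTG lay under a footprint in both libraries.

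Footprints at the 5 genes numbered 169 in replicate 1 and 97 in replicate 2. Of them 51 in replicate 1 overlapped a footprint of the other library, 30.2% with a Wilson 95% interval of 23.8 to 37.5, and 51 in replicate 2, 52.6% with an interval of 42.7 to 62.2. Over all footprints the shares were 37.3% in replicate 1 and 60.3% in replicate 2, so the footprints of the 5 genes recurred no more often than the background. Abat had 49 footprints in replicate 1, 22 of them recurring, and 30 in replicate 2, 20 of them recurring. Slc32a1 had 38 in replicate 1 with 15 recurring and 22 in replicate 2 with 13 recurring. Slc6a11 had 34 with 6 recurring in replicate 1 and 18 with 8 in replicate 2, and Gad1 had 21 with 6 in replicate 1 and 12 with 7 in replicate 2. The Abat region thus had the most and the Gad2 region the fewest that recurred. These counts include footprints at the starts of neighbours. The peak at the starts of Pmm2 and Tmem186, in the Abat region, held 11 in replicate 1 and 8 in replicate 2. The peak at the start of Actr5, in the Slc32a1 region, held 7 in replicate 1 and 5 in replicate 2.

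**Figure D3:**
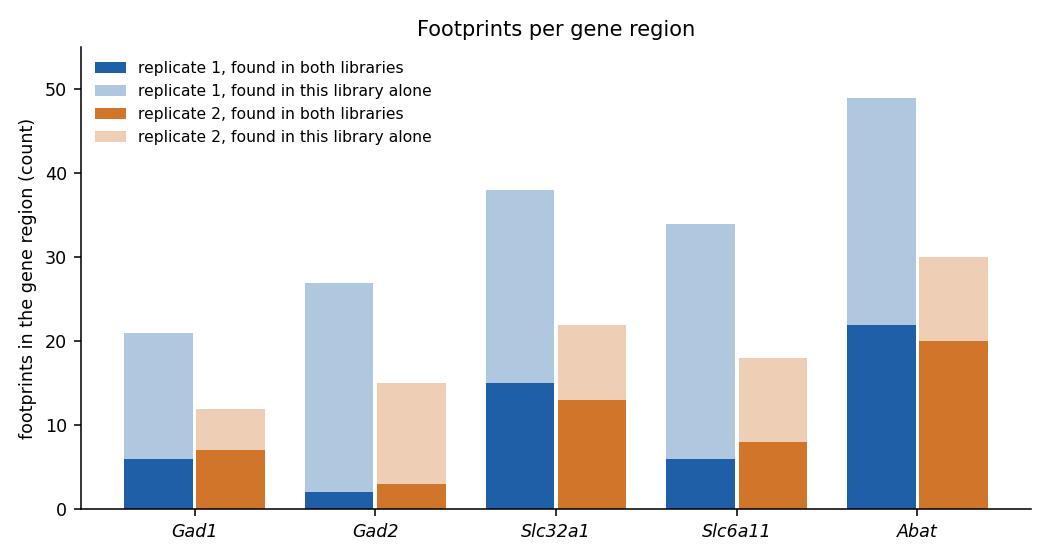
Number of footprints (y) in the region of each gene (x) in replicate 1 and replicate 2, split into those that overlap a footprint of the other library (dark) and those that do not (pale). Abat has 22 recurring of 49 in replicate 1, and Gad2 has 2 of 27. The regions of Abat and Slc32a1 include footprints at the starts of neighbouring genes.

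Of the peaks of the 5 genes, 89.1% in replicate 1 and 61.4% in replicate 2 held at least 1 footprint, against 82.3% and 72.0% of all peaks. Of the footprints, 89.9% in replicate 1 and 85.6% in replicate 2 lay in a peak, against 85.5% and 87.8% of all footprints. Gad2 had the lowest share of footprinted peaks, 9 of 12 in replicate 1 and 7 of 17 in replicate 2. At Abat 10 of 11 peaks in replicate 1 and 9 of 11 in replicate 2 held one.

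Where a peak of one library overlapped exactly 1 of the other, signals were compared. There were 35 such pairs at the 5 genes and 61026 in all. Over all pairs the median log2 difference, replicate 1 minus replicate 2, was -0.25, and the spread around it had an SD of 0.32. Of the 35 pairs, 9 were higher and 26 lower in replicate 1 before this offset was removed, and 21 lay above and 14 below it after. Within 1 SD of the offset lay 22 of 35, and 34 lay within 2 SD, where all pairs had 70.5% and 95%. The exception was the Slc32a1 intron peak 1.85 kb from the start, at -0.91 from the offset on the log2 scale, and 0.79% of all pairs lay as far from it. The Abat start pair lay 0.05 above the offset and the strongest Gad1 pair 0.48 above it.

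**Figure D4:**
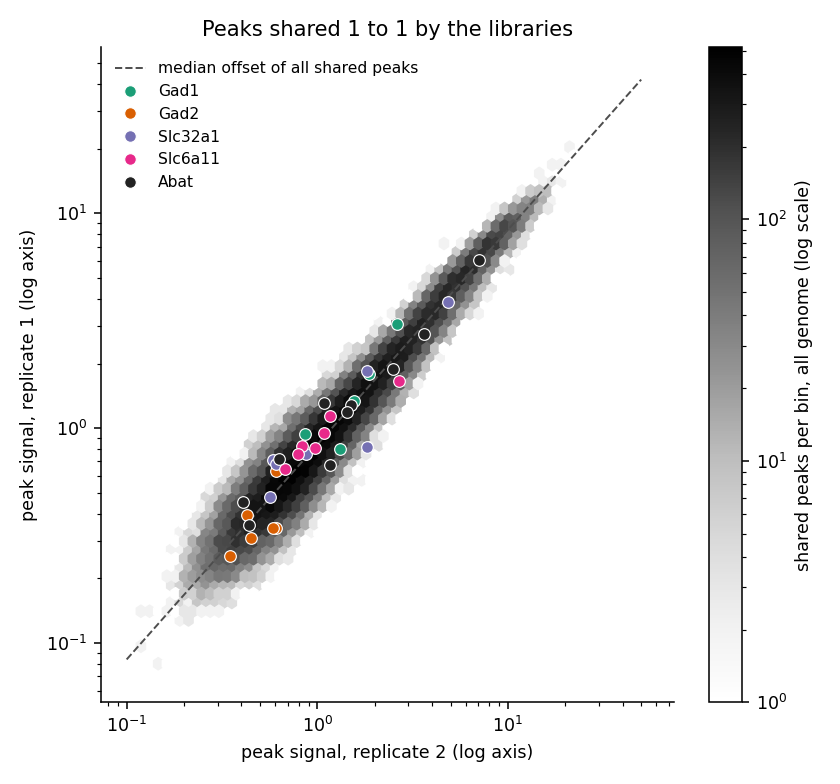
Signal in replicate 1 (y, log axis) against replicate 2 (x, log axis) for peaks shared 1 to 1. Grey hexagons count all 61026 pairs, the dashed line is their median offset and the coloured dots are the 35 pairs at the 5 genes, which lie along the line apart from a Slc32a1 dot at 0.818 in replicate 1 and 1.83 in replicate 2.

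Peaks found in 1 library had low to middling signals. The 9 in replicate 1 had signals of 0.380 to 0.818, and the 9 in replicate 2 had 0.350 to 0.925. Of the 9 in replicate 1, 1 held a base listed in the significant cut rates of replicate 2, and of the 9 in replicate 2, 1 held a base listed in those of replicate 1. Over all such peaks the shares were 12.4% for replicate 1 and 24.6% for replicate 2.

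Among 17 other genes linked to GABA metabolism, 15 in replicate 1, 14 in replicate 2 and 14 in both had an open promoter. For all protein-coding genes the shares were 66.6%, 63.8% and 63.3%. The median promoter signal of the 17 genes was 2.27 in replicate 1 and 2.75 in replicate 2, where the 5 genes had 0.938 and 1.20. Several enzyme genes had strong start peaks. Glul, the astrocyte glutamine synthetase, had 5.69 in replicate 1 and 6.56 in replicate 2. Aldh5a1, which acts after Abat in GABA breakdown, was not among them. It had 2.27 in replicate 1 and 2.75 in replicate 2, the 37.9 percentile of open promoters in both. Pdxk, which makes the cofactor of both decarboxylases and of the transaminase, had 5.47 in replicate 1 and 6.18 in replicate 2. Abat thus lay near Glul and Pdxk.

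Of the plasma membrane GABA transporters, Slc6a13 had 0.292 in replicate 1 and no peak in replicate 2, and Slc6a12 had none in either. Gad1, Gad2, Slc32a1 and Slc6a11 each lay below 13 or 14 of the 17 genes in each library, while Abat lay below 2. The closest to the first 4 was Adhfe1, an alcohol dehydrogenase family gene, with 0.911 in replicate 1 and 1.08 in replicate 2.

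**Figure D5:**
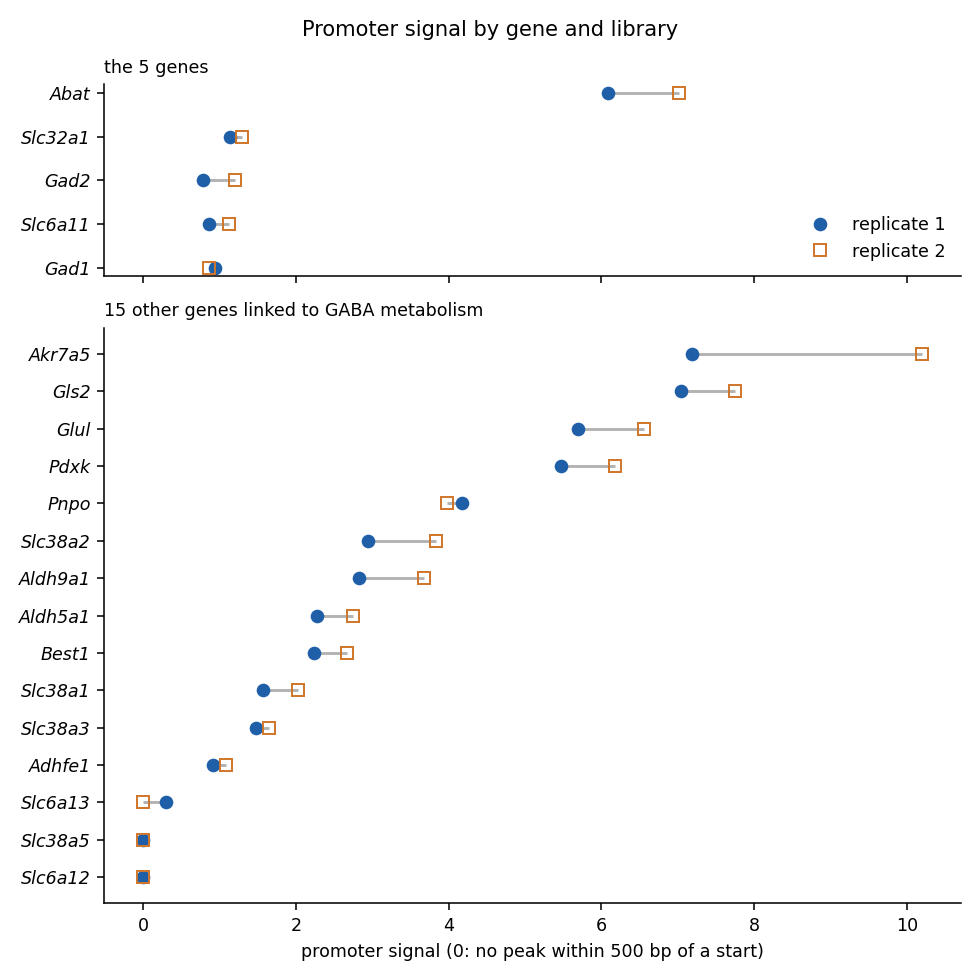
Promoter signal (x, authors' unit, 0 where no peak lies within 500 bp of a start) of the 5 genes and of 15 other genes linked to GABA metabolism (y), with replicate 1 as filled dots and replicate 2 as open squares. Abat lies with Glul and Pdxk, and the other 4 of the 5 genes lie near Adhfe1.

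The genes with the most similar pattern were found by the Euclidean distance over 4 values, promoter signal and distal density in each of the 2 libraries, on a log2 scale. For Gad2 the nearest was Slc17a7, a vesicular glutamate transporter gene of excitatory neurons, at a distance of 0.189, with promoter signals of 0.708 in replicate 1 and 1.25 in replicate 2. The nearest was Micall1 for Gad1 at 0.0746, and Phf24 for Slc32a1 at 0.131. It was Syne3 for Slc6a11 at 0.129, and Zfp334 for Abat at 0.093.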

How the data were processed

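DNase-seq files of the 2 libraries were used as deposited, on assembly mm10 (GRCm38) per the labels. Per the text files deposited with them, the authors derived peaks, footprints and cut rates for each library from its filtered alignments. No source used here names the aligner, the callers or their versions and thresholds. The signal of a peak is a value deposited by the authors on an unstated scale. The authors' deposited false discovery rate of cutting, a p-value type of measure, is below 0.05 wherever listed. The value deposited with each footprint is 0.01 throughout, so footprints were not ranked.

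Of the 2 peak lists per library the longer was used, and the shorter was an alternative. Starts and genes came from GENCODE M21 and sequence from GRCm38.p6. A gene region was the gene body with 20 kb on each side, a region's promoter windows reached 500 bp on each side of any of its starts, and overlaps needed 1 bp. Overlapping peaks of one list were counted singly. The differences between libraries were centred on the median of all shared pairs. Consensus motifs were searched as exact letters on both strands, in the central 200 bp of peaks for shares, and footprints had to cover a share of 0.5 of a match for it to count as footprinted. Similar genes were sought over log2(promoter signal + 0.1) and log2(distal peaks per 100 kb + 1). With 1 group of 2 replicates no test was made, and the gap between libraries may be technical. The members, gene lists and motifs were chosen with earlier results of these data known. Named genes were the 5, the 17 pathway genes, marker genes, neighbours with a start in a region and the nearest gene by pattern; a few further peaks were picked after their values were seen. Some genes of these lists are counted but not reported by name here. Overlap code was tested on simulated intervals. Of the 5 genes, 4 are in the RefSeq promoter table for GRCm38, and its letters equalled those read here. Python 3.11.15, pandas 2.3.3, numpy 2.4.6 and scipy 1.17.1 were used.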

Additional observations from a re-analysis of the deposited data

How the results depend on the processing

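All 5 genes kept an open promoter with windows of 100 and 2000 bp and in either library alone; 4 did, without Gad1, with the shorter list, the strongest 50% of peaks or the gene start alone. The mean number of peaks per library over the 5 regions was 56, and was 34 with the shorter list, 30.5 with the strongest 50% and 124 with flanks of 100 kb. The shared percentage in replicate 1, 83.6, was 61.5 with the shorter list, 67.6 with the strongest 50%, 70.1 with 100 kb flanks and 63.6 with 50% reciprocal overlap. In replicate 2, 84.2 became 95.8 with the strongest 50% and 61.4 with reciprocal overlap. Footprints averaged 133 per library, with 78.5 without flanks and 318 with 100 kb. The mean number of distal peaks was 2.5 at Gad2, 3 at Slc32a1 and 5 at Abat with the shorter list, against 7, 5 and 8; without flanks it was 2 at Gad2 and 1 at Slc32a1; with 100 kb flanks it was 8.5 at Gad1, 11 at Gad2, 17.5 at Slc32a1, 26.5 at Slc6a11 and 22 at Abat. Leaving out either library gave 55 to 57 peaks and 97 to 169 footprints. With 1 mismatch, peaks with a CTCF match were 8 in replicate 1 and 7 in replicate 2, against 3 in each. Wider flanks and shorter lists change these counts by construction; the cause of the other shifts was not tested. No paired analysis was possible because both libraries belong to 1 group. The signal's scale and the read depth are unknown, so a peak missing from 1 library may lie under its threshold.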

Other observations

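The homeodomain core TAATTA, a site class read by the Dlx and Lhx factors of interneurons, occurred 5 times in the peaks of the 5 genes, each time in a peak of both libraries, and no footprint of either library covered a copy. It lay centrally in 2 of 55 of these peaks in replicate 1 (3.64%) and 4 of 57 in replicate 2 (7.02%). Over all peaks the shares were 2.66% and 2.47%, so the difference rests on few peaks. GGGCGG occurred 24 times, 12 of them under a footprint in replicate 1, 5 in replicate 2 and 5 in both. Those 5 include copies in the peaks at the starts of the neighbours Actr5, Pmm2 and Tmem186. GGGCGG lay centrally in 18.2% of the peaks of the 5 genes in replicate 1 and 19.3% in replicate 2. Over all peaks the shares were 19.9% and 22%, so it was no more frequent at the 5 genes. TTGGCA, the core bound by nuclear factor I, occurred 15 times, with 1 copy under a footprint in both libraries, in the Abat peak 82.2 kb from the start. The central shares of TTGGCA were 18.2% in replicate 1 and 24.6% in replicate 2, against 15.7% and 15.4% of all peaks. AP-1 letters TGANTCA occurred 4 times, with no copy under a footprint in either library. For TGANTCA the central shares were 1.82% in replicate 1 and 5.26% in replicate 2, against 6.22% and 6.33% of all peaks. How often copies lay under a footprint over all peaks was not computed. No match to the cyclic AMP element TGACGTCA lay centrally in a peak of the 5 genes, where 0.833% of all peaks in replicate 1 and 0.892% in replicate 2 held one. These counts describe letters and say nothing of which factors were present.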
